A study of Mus musculus with 2 samples.

Results

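The genes described here encode subunits of ATP-dependent chromatin remodellers and of the complexes built around them: 38 genes listed by name as SWI/SNF (BAF), NuRD, CHD and TIP60-INO80 subunits, out of 22225 protein-coding symbols of the mm9 annotation. The rule names them by complex and uses no measured value, though the list was drawn up with earlier results of these data known. All 38 were found in the annotation. BAF contributed 21 genes, NuRD 12, the CHD family outside NuRD 2 and the TIP60 and INO80 complexes 3. The data are peak lists from chromatin immunoprecipitation with sequencing (ChIP-seq) against POU5F1, the POU-domain pluripotency factor also called OCT4, in cells of E14TG2a.4, an embryonic stem cell line from a male mouse of strain 129/Ola. The 2 biological replicates carry no treatment or genetic change in the labels, both come from this single line, and no second condition was compared. The deposited mm9 lists had 5515 peaks (whole series), 1330 (replicate 1) and 6324 (replicate 2). The mm10 optimal list, cut by irreproducible discovery rate (IDR), a measure of how well a peak's rank repeats between 2 ranked lists, had 3994. Not all of its peaks ranked high in both replicates, as given below. A conservative IDR list had 2676. Each peak carries 1 deposited signal value with no error of its own, and read depth is unknown.

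Chromatin remodellers use ATP to slide, evict or restructure nucleosomes and so set how easily factors such as POU5F1 reach DNA. BAF complexes share a core and an ATPase, Smarca4 or Smarca2, and come as canonical BAF (with Arid1a or Arid1b and a Dpf protein), PBAF (with Arid2, Pbrm1, Brd7 and Phf10) and a non-canonical form (with Brd9). Embryonic stem cells are known for a BAF assembly rich in Smarca4, Arid1a, Smarcc1, Smarcd1, Actl6a and Dpf2, while paralogs such as Actl6b, Dpf1, Dpf3, Smarcc2, Smarcd3 and Smarca2 enter complexes of neurons, muscle or other differentiated cells. NuRD joins a CHD ATPase to histone deacetylases and methyl-CpG binding domain proteins, and it limits pluripotency gene expression. The lists show where POU5F1 was bound near these genes, not how much RNA or protein they made.

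Of the 38 genes, 18 had a peak centre within 50 kb of a transcript start (47.4%, 95% Clopper-Pearson interval 31.0 to 64.2%), beside 27.3% of the 22187 other protein-coding genes. Within 10 kb the count was 7 (18.4%, interval 7.74 to 34.3%) beside 8.64%. Both intervals cover counting error only, and the lower bound at 10 kb lies below the share of other genes. At promoters, 0 of 38 had a peak within 1 kb of a start, beside 2.18% of other genes. That share lies below the upper bound of 9.25%, so the count is too small to show a difference. The median distance from a gene to its closest peak was 82.5 kb for the remodeller genes and 126 kb for the others. Pbrm1, at 49.2 kb, was the last gene inside the 50 kb limit and Actl6b, at 77.9 kb, the first outside it, while Mta2 at 7.25 kb and Smarce1 at 13.3 kb lay on either side of 10 kb.

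**Figure D1:**
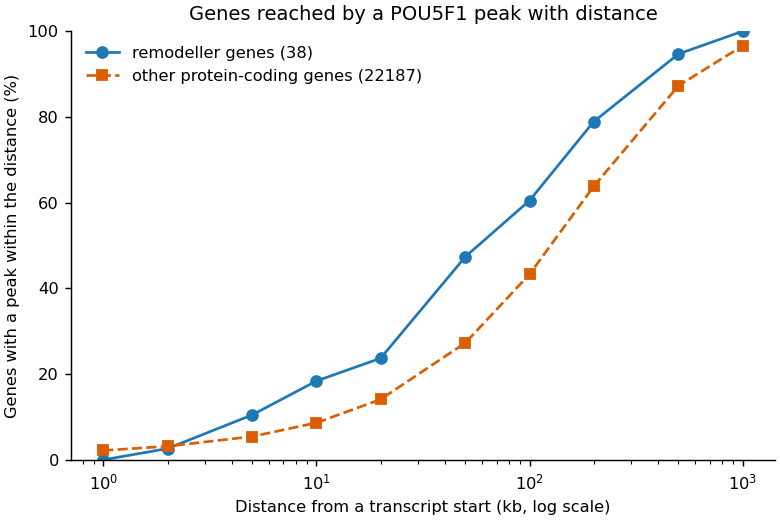
Share of genes (y axis, percent) with a peak centre within a given distance of a transcript start (x axis, kb, log scale) for the 38 remodeller genes (circles) and 22187 other protein-coding genes (squares), mm9 whole-series list. The remodeller genes lie at 0 against 2.18% at 1 kb, where their upper bound is 9.25%. They lie above the others from 5 kb on, with 47.4 against 27.3% at 50 kb.

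Remodeller genes have more annotated starts and longer bodies than most genes, and each start adds sequence to the window. The median was 5 starts per gene against 2, and 31.0 kb of gene length against 15.5 kb. Among other genes with 5 or more starts, 34.2% were near a peak within 50 kb, and 11 of the 24 remodeller genes with that many (45.8%) were. With 2 to 4 starts the shares were 29.3% of other genes and 5 of 9 remodeller genes, and with 1 start 22.0% and 2 of 5. Among genes over 29.5 kb long, 30.0% of other genes and 12 of 20 remodeller genes had a peak. From 7.51 to 29.5 kb these were 29.2% and 6 of 16 (37.5%), and among shorter genes 22.6% and 0 of 2. When each gene was given its most upstream start alone, 14 remodeller genes were left near a peak at 50 kb, beside 25% of other genes, and 4 at 10 kb, beside 6.90%.

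The complexes did not contribute evenly. BAF had 11 of 21 genes within 50 kb and 5 within 10 kb, NuRD 3 of 12 and 1, the 2 CHD genes 2 and 1, and the TIP60 and INO80 genes 2 of 3 and 0. Of other genes, 27.3% had a peak within 50 kb and 8.64% within 10 kb. The NuRD share, 25% with an interval of 5.49 to 57.2%, was close to that of other genes, and the BAF share of 52.4% had an interval of 29.8 to 74.3%. These intervals overlap widely, and no difference between complexes was tested. Within BAF, 5 of the 6 paralogs of the stem cell assembly had a peak within 50 kb and Dpf2, at 96.4 kb, did not. Of the 6 paralogs of neurons, muscle or other differentiated cells, called neural or muscle paralogs here, Smarca2 alone had a peak. The intervals of these small groups, 35.9 to 99.6% and 0.421 to 64.1%, overlap as well. When a peak counted only for its nearest gene, 2 stem cell and 1 neural or muscle paralog were left, beside 13.4% of other genes. The contrast was not present in the replicate 1 list, where each group had 1 gene near a peak (beside 8.14% of other genes). In the replicate 2 list the stem cell and the neural or muscle paralogs had 4 and 1 of 6 (beside 30.0%). With the mm10 optimal list and gene bodies they had 3 and 2 of 6 within 50 kb (beside 24.0%). Within 10 kb these were 1 and 2 of 6 (beside 11.3%), with overlapping intervals of 0.421 to 64.1% and 4.33 to 77.7%.

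**Figure D2:**
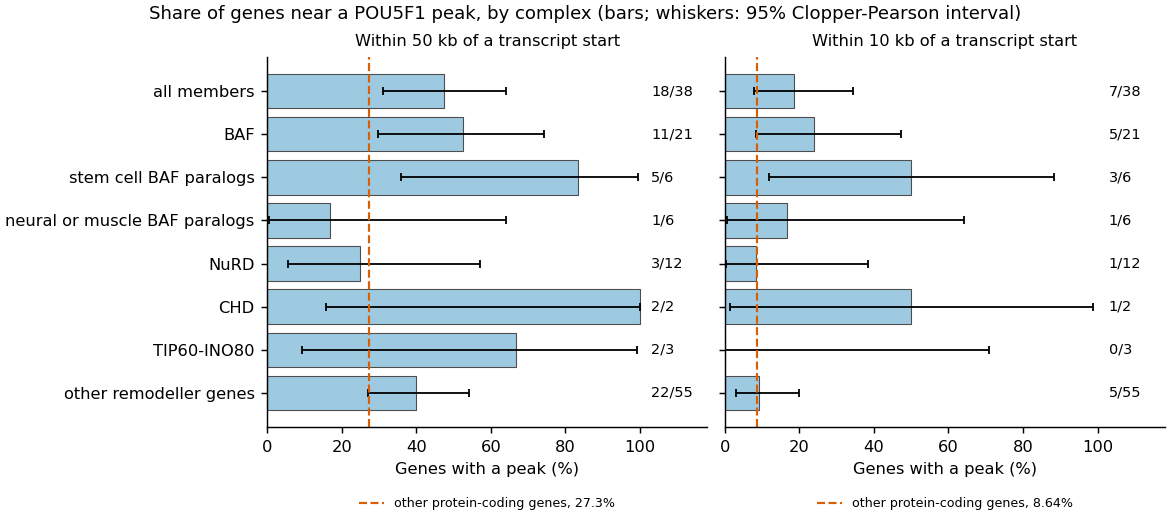
Share of genes with a peak within 50 kb (left) and 10 kb (right) of a transcript start by complex, with counts at the right of each panel, 95% Clopper-Pearson intervals as whiskers and the share of other protein-coding genes as a dashed line. BAF genes reach 11 of 21 at 50 kb and NuRD genes 3 of 12, beside 27.3% of other genes. The whiskers of the small groups span most of the axis.

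Around these 18 genes lay 24 distinct peaks, of which 12 were in introns, 9 between genes and 3 within 1 kb of a start of another gene. Introns held 50% of them, beside 34.8% of all 5515 peaks. The full list includes peaks farther from genes, with a median of 23.0 kb to the nearest start beside 5.84 kb for the 24. For 10 of the 24, the nearest protein-coding start belonged to a remodeller gene. Their median signal was 5.72, beside 5.58 over the whole list, and 13 reached the list median. The highest was 10.55, at Chd1, where the list goes up to 32.6. By gene, the strongest peak within 50 kb had a median signal of 6.31 for the 18 remodeller genes and 5.87 for the 6046 other genes near a peak.

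The sequences of 5 of these peaks are shown in full over 201 bp around the centre, to let the bound DNA at the main peaks be read: the peak found in both replicate lists closest to a member, at Smarca2, the next strongest peaks within 10 kb of a member, at Smarcd1 and Smarcc1, and, picked after their values were seen, the strongest peak of all, at Chd1, and one that holds both a POU and a SOX site, beside Smarce1. Bases are on the plus strand of mm9. Capitals mark matches to 4 motifs searched on both strands: the composite of a SOX and a POU site with up to 2 mismatches, the octamer ATGCAAAT, the SOX site CATTGTT and, with up to 1 mismatch, the MORE palindrome, which binds POU dimers. The octamer is also the POU part of the composite, so both can be counted in 1 place.
Smarca2, chr19:26683078-26683278: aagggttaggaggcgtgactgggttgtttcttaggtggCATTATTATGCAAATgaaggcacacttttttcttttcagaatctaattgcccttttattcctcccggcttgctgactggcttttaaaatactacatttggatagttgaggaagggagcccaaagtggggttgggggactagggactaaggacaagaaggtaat
Smarcc1, chr9:110031782-110031982: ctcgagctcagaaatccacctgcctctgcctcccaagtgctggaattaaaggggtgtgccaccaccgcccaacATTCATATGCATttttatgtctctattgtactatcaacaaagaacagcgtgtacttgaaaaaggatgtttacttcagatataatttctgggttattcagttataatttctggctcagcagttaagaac
Smarcd1, chr15:99538377-99538577: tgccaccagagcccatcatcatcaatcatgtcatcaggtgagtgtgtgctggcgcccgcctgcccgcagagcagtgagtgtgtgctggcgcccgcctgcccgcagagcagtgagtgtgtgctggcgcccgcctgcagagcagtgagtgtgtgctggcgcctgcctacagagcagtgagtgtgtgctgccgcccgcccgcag
Smarce1, chr11:99105483-99105683: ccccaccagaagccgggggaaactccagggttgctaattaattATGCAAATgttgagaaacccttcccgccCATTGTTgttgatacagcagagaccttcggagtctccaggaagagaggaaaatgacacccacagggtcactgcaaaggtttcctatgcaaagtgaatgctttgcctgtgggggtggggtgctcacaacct
Chd1, chr17:15814907-15815107: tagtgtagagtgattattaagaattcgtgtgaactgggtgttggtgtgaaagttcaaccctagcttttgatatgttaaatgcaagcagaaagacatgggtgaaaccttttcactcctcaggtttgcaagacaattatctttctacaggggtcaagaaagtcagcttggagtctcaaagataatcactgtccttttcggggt

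In the Smarca2 window the capitals are a composite element with the single substitution G5A, counted from the 5′ end of the element, and its POU part is an exact octamer. A composite match with no more than 1 mismatch was present in 1.89% of all peak windows. In the Smarcc1 window they mark a MORE match with the substitution G3T. The Smarce1 window holds an octamer 53 bp and a SOX site 26 bp from its centre. The Chd1 and Smarcd1 windows hold none of the 4 motifs. The Smarcd1 window begins in the end of a Smarcd1 exon and goes on into an intron that holds a tandem repeat. Its longest repeated run was 62 bases, where the median over all peak windows was 7, and 42 of the 5515 windows (0.762%) held a run of that length or more. Whether reads map uniquely there was not tested.

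Across the 24 peaks the composite was found in 1 window (4.17%, beside 9.30% of all 5515), the octamer in 3 (12.5%, beside 13.4%), the MORE element in 1 (4.17%, beside 2.38%) and the SOX site in 3 (12.5%, beside 6.75%). At least 1 of them was present in 6 windows, 25% beside 25.9% in the list. Those 6 were the Smarca2, Smarcc1 and Smarce1 windows shown, the Smarcd1 peak at 2.87 kb (a SOX site), and the Mta3 peaks at 23.0 kb (an octamer) and 44.2 kb (a SOX site). With up to 3 mismatches the composite was found in 6 of 24 windows, beside 28.7% of all. The windows had a median GC content of 50.7%, beside 46.3%.

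Of the BAF ATPases, Smarca2, the alternative to Smarca4, had a peak in its intron, 1.42 kb downstream of the closest start and 3.53 kb from the first (chr19:26682951-26683404). Its signal was 7.64 in the whole-series list, rank 978 of 5515, 6.22 in that of replicate 1 and 13.6 in that of replicate 2. It was the only peak within 10 kb of any of the 38 genes that both replicate lists held. Smarca4, the ATPase of the stem cell assembly, had its closest peak 23.3 kb upstream (chr9:21397177-21397479). That peak had a signal of 4.99 and 8.31 in the whole-series and replicate 2 lists, no counterpart in replicate 1, and lay 0.105 kb from the start of Yipf2.

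Core subunits follow. Smarcc1, a scaffold subunit, had a peak of signal 6.75 between genes, 2.66 kb upstream of its only annotated start (chr9:110031710-110032053), at 12.09 in replicate 2 and missing from replicate 1. For Smarcd1, a subunit that links BAF to transcription factors, 3 peaks were counted. Those in its introns lay 2.87 and 5.76 kb downstream with signals of 5.29 and 7.43, nearest to Gm17241, and a peak of 6.46 lay 26.7 kb downstream between genes. Replicate 2 had all 3, at 9.07, 9.67 and 12.85, and replicate 1 none. The peak of 7.43 is the one whose window, shown above, holds the tandem repeat.

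Actl6a, the actin-like subunit of stem and progenitor cells, had a peak of 7.64 between genes, 40.2 kb downstream of its closest start and nearer to Ndufb5 (chr3:32657410-32657967). Both replicates held it, at 7.47 and 12.85. Smarcb1, a core subunit known as a tumour suppressor, had peaks of 4.70 and 4.11 at 32.1 and 41.0 kb, nearest to Derl3 and Mif, and Smarce1 a peak of 5.87 at 13.3 kb that lay 0.184 kb from the start of Krt222, a keratin gene. Replicate 2 alone held these 3 peaks, at 9.07, 6.64 and 8.31. The remaining core genes had no peak within 50 kb: Actl6b was 77.9 kb, Smarcc2 89.0 kb, Smarcd2 199 kb and Smarcd3 408 kb away.

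The subunits that set a BAF complex apart had weak or distant peaks, as several core subunits did. At Arid1a, the DNA-binding subunit of canonical BAF, a peak of 3.52 ranked 5429 in an intron, 5.95 kb from the closest start and 26.9 kb into the gene (chr4:133285578-133285918). No peak of either replicate list overlapped it. Its paralog Arid1b had a peak of 5.07 in an intron at 20.4 kb, with 8.71 in replicate 2 and nothing in replicate 1. Phf10, a PBAF subunit, had the weakest peaks of the set. They had signals of 2.90 and 3.31 and ranks of 5508 and 5485, and widths of 1204 and 710 bp where the list's median is 367 bp. The first lay 2.67 kb inside Phf10, where another gene model overlaps it, and the second 28.3 kb upstream. Pbrm1, the bromodomain subunit that gives PBAF its name, was counted through a peak of 7.93 just inside the limit, 49.2 kb from an internal start, 120 kb from the first and 1.08 kb from Stab1. Both replicates held that peak, at 5.60 and 12.85. Arid2 (89.3 kb), Dpf2 (96.4 kb), Dpf1 (106 kb), Brd9 (461 kb), Dpf3 (496 kb) and Brd7 (529 kb) had none within 50 kb.

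Both CHD genes had a peak. Chd1, an ATPase linked to open chromatin in embryonic stem cells, had the strongest peak of the whole set, 26.9 kb upstream between genes (chr17:15814786-15815227) and nearest to Chd1 itself. Its signal was 10.55, rank 347 of 5515, with 8.71 in replicate 1 and 16.63 in replicate 2. Chd7, mutated in CHARGE syndrome and known from enhancers, had a peak of 6.46 in an intron (chr4:8672654-8673049), 5.73 kb from an internal start and 55.3 kb from the first, held by replicate 2 at 10.58 and not by replicate 1.

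In NuRD the peaks clustered at Mta3, a scaffold subunit. Its 3 peaks had signals of 4.70 and 8.22 in its introns, 23.0 and 44.2 kb downstream, and 4.47 upstream at 37.7 kb, nearest to Kcng3. The peak of 8.22 (chr17:84149553-84149974) was in both replicate lists, at 8.09 and 13.6, and the others in that of replicate 2 alone, at 7.56 and 8.31. Its paralog Mta2 had a peak of 5.58 at 7.25 kb, but that peak lay 0.199 kb from the start of Tut1. Hdac1, a catalytic deacetylase, had a peak of 6.17 at 39.7 kb that was nearer to Fam167b. Replicate 2 alone held both, at 9.10 and 11.46. The 9 other NuRD genes had none within 50 kb. These were Chd4 (87.2 kb), Gatad2a (123 kb), Mta1 (168 kb), Mbd2 (187 kb), Chd3 (195 kb), Hdac2 (214 kb), Rbbp4 (221 kb), Mbd3 (344 kb) and Gatad2b (514 kb). The peak closest to Chd4, the main NuRD ATPase, was strong, at 19.38, and nearest to Zfp384.

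Ino80, the ATPase of its complex, had a peak of 8.92 in its own intron, 13.6 kb downstream of the start (chr2:119289530-119290057, rank 578). Replicate 1 gave it 8.71 and replicate 2 13.39. Ep400, the ATPase of the TIP60 complex, had a peak of 4.70 at 25.4 kb, nearer to Noc4l and held by replicate 2 only, at 6.80. The acetyltransferase Kat5 was 168 kb from its closest peak.

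**Figure D3:**
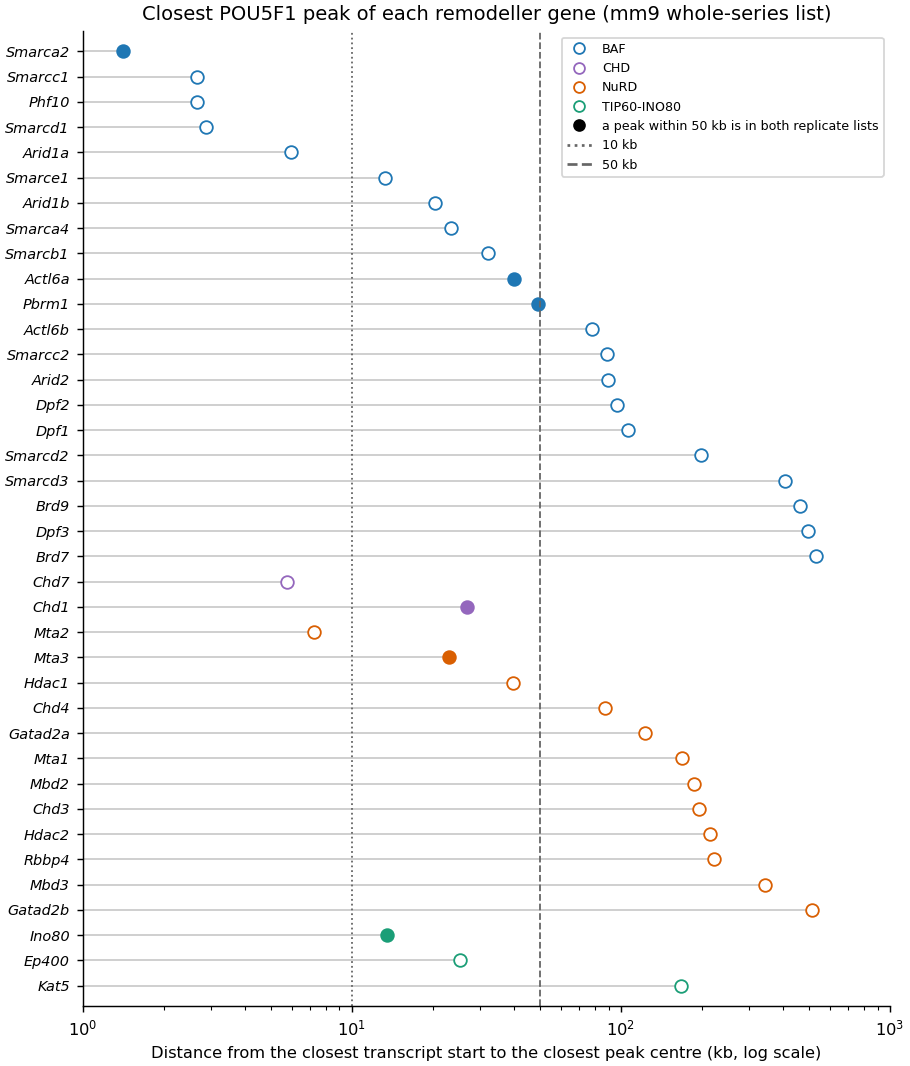
Distance from the closest transcript start to the closest peak centre (x axis, kb, log scale) for each of the 38 genes, coloured by complex, with dotted and dashed lines at 10 and 50 kb. Filled circles mark the 6 genes with a peak within 50 kb that both replicate lists hold. For Mta3 that is the peak at 44.2 kb, not the one drawn at 23.0 kb. Of the 7 genes left of the dotted line only Smarca2 is filled.

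Replicate support was uneven. Of the 24 peaks, 6 were in both replicate lists (25%, beside 21.9% of all 5515), 17 in that of replicate 2 only (70.8%, beside 64.8%) and 1, at Arid1a, in neither (4.17%, beside 12.5%). The 6 shared peaks, at Chd1, Ino80, Mta3, Pbrm1, Smarca2 and Actl6a, were also the 6 of highest signal in the whole-series list, which is not independent of the replicates. With the replicate 1 list alone, 6 genes had a peak within 50 kb (15.8%, interval 6.02 to 31.3%) beside 8.14% of other genes, and 1 within 10 kb beside 2.29%. With the replicate 2 list alone the counts were 19 (50%) beside 30.0%, and 6 beside 9.68%. Within 10 kb, 6 of the 8 peaks were in the replicate 2 list only, so most of that count rests on 1 replicate.

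**Figure D4:**
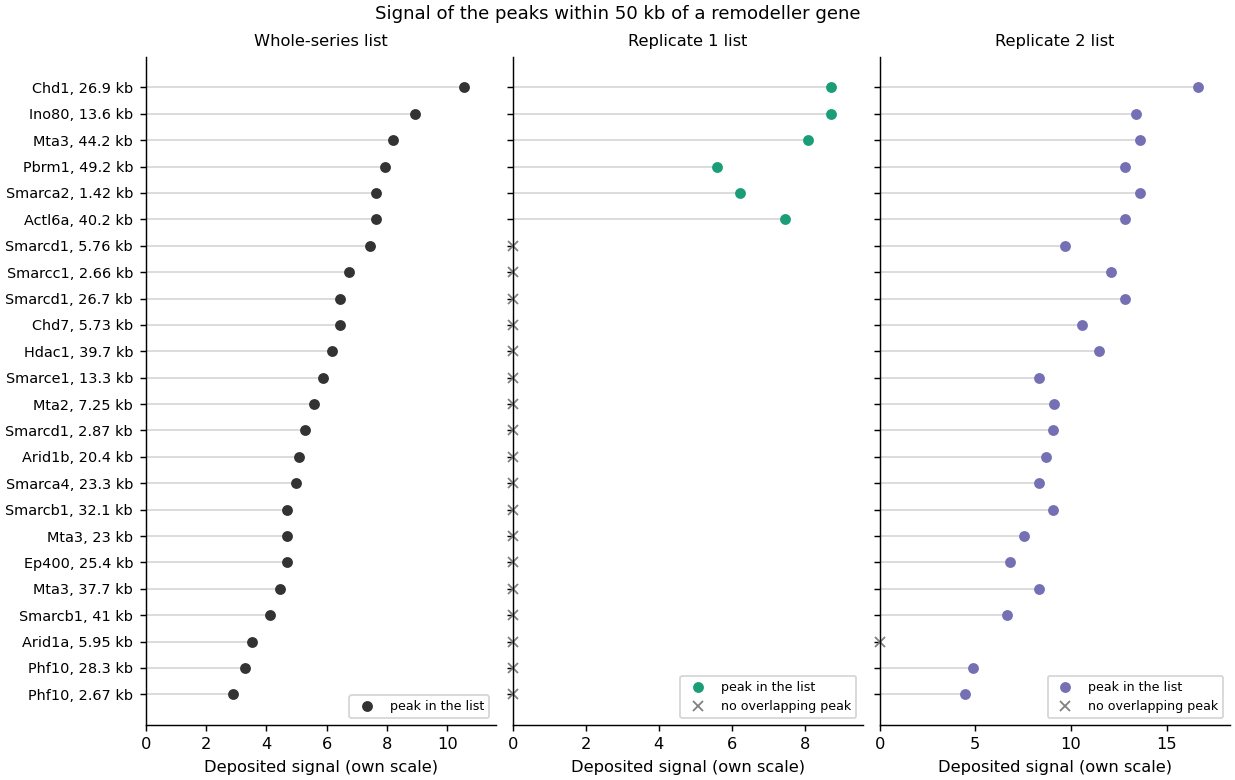
Deposited signal (x axes, each list on its own scale, not comparable between panels) of the 24 peaks within 50 kb of a remodeller gene, labelled by gene and distance, in the whole-series, replicate 1 and replicate 2 lists. Crosses mark peaks with no overlapping entry: 18 of the 24 in replicate 1 and 1, at Arid1a, in replicate 2.

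On mm10 the optimal list was measured against gene bodies that RefSeq places on GRCm38, with no conversion of coordinates. A peak lay within 50 kb of the body of 12 of 38 genes (31.6%, interval 17.5 to 48.7%) beside 24.0% of other genes, and within 10 kb of 6 (15.8%) beside 11.3%. With the conservative list, 8 of 38 had a peak within 50 kb, beside 17.2%. By complex the 12 of the optimal list were 8 BAF, 2 CHD, 1 NuRD and 1 INO80 gene at 50 kb. Measured from the 5′ end of the gene, 8 of 38 were near a peak of the optimal list, close to the share of other genes (19.3%). From the starts in the RefSeq promoter table, which matched 30 of the genes, 5 were (16.7%, beside 18.9%). The higher share was thus not present under that last measure, which covers 30 genes only. That table had no start for 8 of the 38. Among those 8 were Chd1, Chd7, Mta3 and Smarce1, which had a peak within 50 kb of their bodies and could not be counted. Within 10 kb of those starts lay 2 of 30 (6.67%, beside 5.60%). The mm9 and mm10 counts shared 11 genes. Arid1a, Arid1b, Ep400, Hdac1, Mta2, Phf10 and Smarcc1 had a peak on mm9 only and Dpf3 on mm10 only.

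The strongest mm10 peaks were those in Mta3 (signal 66.3, rank 591 of 3994), in Ino80 (63.7, rank 654), 17.2 kb from Pbrm1 (61.5, rank 706), 26.9 kb from Chd1 (57.3, rank 834) and in Smarca2 (48.5, rank 1178). In the relaxed lists of 300000 entries per replicate, these ranked 451, 348, 2268, 1207 and 1936 in replicate 1 and 795, 883, 384, 706 and 1048 in replicate 2. All 5, and the Smarcd1 peak at 14.9 kb (935 and 3178), were within the first 3994 ranks of both. The Actl6a peak ranked 8056 and 1014. The peak inside Chd7 (signal 40.6, rank 1702) overlapped no entry of replicate 1 and ranked 1149 in replicate 2. The Smarca4 peaks 23.2 and 29.4 kb from its body ranked 21981 and 8401 in replicate 1 against 2851 and 4273 in replicate 2. The Dpf3 peak, the weakest of the set at 21.2, was the reverse, with rank 1817 in replicate 1 and 168834 in replicate 2.

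A wider list of 55 other remodeller genes, written with earlier results of these data known, had 22 genes within 50 kb (40%, interval 27.0 to 54.1%, beside 27.3%) and 5 within 10 kb (9.09%, beside 8.64%). Those 5 were Zmynd8 at 0.58 kb with signal 3.52, Chd2 at 1.64 kb with 6.75, Baz2b at 5.05 kb with 5.29, Smarcal1 at 5.69 kb with 5.29 and Ss18 at 6.11 kb with 11.65. Ss18, a dedicated BAF subunit, was the only one of the 5 whose closest peak was in both replicate lists. By family, the counts within 50 kb and 10 kb were 6 and 0 of 11 for INO80 subunits outside the 38, 5 and 1 of 11 for ISWI genes and 4 and 0 of 13 for TIP60 and SRCAP subunits. Further BAF genes had 3 and 1 of 6, CHD genes 2 and 1 of 5, NuRD genes 1 and 1 of 4 and other SNF2-like genes 1 and 1 of 5.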

How the data were processed

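POU5F1 ChIP-seq peaks from 2 biological replicates of E14TG2a.4 cells were analysed from the authors' lists. The lists have no header lines; the deposited descriptions give format and build, and the columns were read from the format and the values. BroadPeak lists on mm9 (replicate 1, replicate 2, whole series) hold the authors' deposited signal, −log10 p and q-value of each peak. NarrowPeak lists on mm10 hold the deposited signal. They are an optimal and a conservative IDR list and a relaxed list per replicate. Signal was not compared between lists, since its scaling, the aligner, the caller, thresholds and the way replicates were combined are not given in the sources used here. The control experiment was not analysed here.

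A gene was near a peak when a GENCODE M1 (NCBIM37, mm9) transcript start lay within 50 or 10 kb of a peak centre. No peak lay beyond a chromosome end (0). Lists were joined by overlaps of at least 1 bp. Motifs were searched within 100 bp of peak centres. mm10 peaks were measured from their summits to RefSeq gene bodies (GRCm38.p6), with all 38 genes matched. Of 56 other remodeller symbols 55 matched, 1 by an older name. No test was run: members' shares stand beside those of other genes, with 95% Clopper-Pearson intervals. The functions were tested on made-up positions. All members were named, and sequences were chosen as stated beside them. Members and lists were chosen with earlier results of these data known. Python 3.11.15, pandas 2.3.3, scipy 1.17.1 and pysam 0.24.0 were used. Alternatives were the window, nearest gene, each replicate's list, stricter peaks, starts, mm10 reference points and motif settings.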

Additional observations from a re-analysis of the deposited data

How the results depend on the processing

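Read depth is unknown, and the lists hold 1330 peaks for replicate 1 and 6324 for replicate 2, so counts from them differ with list length. Without replicate 1 or without replicate 2, the count at 50 kb ranged from 6 to 19 of 38, beside 8.14 to 30.0% of other genes. At 10 kb it ranged from 1 to 6, beside 2.29 to 9.68%. By complex at 50 kb BAF ranged from 3 to 11, CHD 1 to 2, NuRD 1 to 4 and TIP60-INO80 1 to 2. Beside the same 50 kb shares, the stem cell paralogs ranged from 1 to 4 and the other remodellers from 6 to 20. The neural or muscle paralogs stayed at 1. Counting a peak only for its nearest gene left 9 genes at 50 kb (beside 13.4% of other genes): BAF 5, NuRD 1, TIP60-INO80 1 and 2 stem cell paralogs. Peaks in both replicate lists left 6 (beside 7.64%) at 50 kb and 1 (beside 2.16%) at 10 kb. At 50 kb BAF had 3, CHD 1, NuRD 1, TIP60-INO80 1 and the stem cell paralogs 1. With −log10 p of at least 10, 12 genes were near a peak at 50 kb (beside 16.5%) and 4 at 10 kb (beside 4.93%). At 50 kb BAF had 6, TIP60-INO80 1 and the stem cell paralogs 3. With signal at or above the list median, 12 genes were near a peak at 50 kb (beside 15.8%), of which BAF had 6, TIP60-INO80 1 and the stem cell paralogs 3. With 1 start per gene there were 4 genes at 10 kb, and at 50 kb CHD had 1 and TIP60-INO80 had 1. Within 100 kb, 23 genes (beside 43.3%) and 3 neural or muscle paralogs were near a peak. On mm10, 6 genes had a peak within 10 kb of the gene body (beside 11.3%). Measured from RefSeq starts, an alternative added after the data were seen, as was the 5′ end of the gene, 5 of 30 had a peak within 50 kb (beside 18.9%). With 50% reciprocal overlap, 3 of 18 genes kept a peak in both replicates, against 6. For motifs, 3 mismatches gave the composite in 6 of 24 windows (beside 28.7% of all) and 1 mismatch the octamer in 11 (beside 53.7%). With 50 bp on each side there were 0 composite (beside 7.4%), 1 octamer (beside 10.5%) and 1 SOX match (beside 4.32%). With 250 bp there were 2 composites (beside 10.1%). The other settings kept these counts within 1.5 times. No paired analysis was possible because the series has 1 group.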
